A study of Mus musculus with 3 samples.

Results

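Osteoclasts are multinucleated cells of the monocyte lineage that resorb bone, and macrophages that carry some of their genes have been looked for in injured soft tissue. Cells with such genes were selected here from the leukocytes of the infarcted mouse heart. A cell was taken as a member when it held at least 200 genes, at least 2 molecules of Ocstamp and Dcstamp together, at least 2 molecules of Acp5, and no molecule of the lymphocyte genes Cd3e, Cd3d, Cd3g or Cd79a. Ocstamp and Dcstamp encode membrane proteins needed for osteoclast fusion, and Acp5 encodes tartrate-resistant acid phosphatase, the classical osteoclast enzyme. The rule found 237 members among 25640 cells, a share of 0.924% (exact 95% binomial interval 0.811 to 1.05%, which covers counting error only). The members were compared with 15280 macrophages of the same samples in which the complement genes C1qa, C1qb and C1qc made up at least 0.1% of all molecules and Ocstamp and Dcstamp were not detected, called comparison cells below.

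The study concerns coagulation factor 7 made by macrophages in cardiac remodelling after infarction. Hearts came from mice in which F7 was floxed on both alleles, with Cre under the Cx3cr1 promoter (F7fl/fl CX3CR1Cre) or without Cre (F7fl/fl WT), and infarction was made by permanent ligation of a coronary artery. CD45+ leukocytes were taken from the infarct at several times, marked with sample tags for the biological replicates, pooled and sequenced as single cells on the BD Rhapsody platform in 3 libraries with 18 sample tags in all. Cx3cr1-driven Cre acts in monocytes and macrophages, so the Cre group is a model of loss in that lineage. Which other leukocytes it reaches was not examined here. Neither the age of the mice nor the floxed part of F7 is stated in these sources, and F7 molecules therefore check no genotype. Each library is labelled as holding both genotypes, and the genotype and the time of each tag were not used here, so the values below describe the cells over all hearts and compare cell sets within tags.

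The 3 libraries held 349827525, 88942652 and 93812439 molecules, and the tags 10152522 to 62344127. Library 1 was made with newer capture beads and a newer pipeline version that also counted intronic reads, and libraries 2 and 3 with the older ones. A difference between library 1 and the others therefore cannot be told apart from that change. The times after infarction were not used here, so such a difference cannot be told apart from one of time either. The deposited tables were filtered to called cells; no cell index was shared by 2 tags of a library, and the indices shared between libraries numbered 4, 3 and 0. The members had a median of 30219 molecules per cell, against 20390 in comparison cells. Because the rule asks for a number of molecules, deeper cells pass it more easily, and this depth is no finding about the cells.

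In bone, the cytokine RANKL binds RANK (Tnfrsf11a) on macrophage precursors that already depend on M-CSF and its receptor Csf1r. The signal induces the transcription factor Nfatc1, which switches on fusion genes and the resorption machinery. That machinery includes a plasma membrane proton pump (a V-ATPase with the d2 subunit Atp6v0d2 and the a3 subunit Tcirg1), the chloride transporter Clcn7, carbonic anhydrase 2 (Car2) as the source of protons, and the secreted proteases cathepsin K (Ctsk) and Mmp9. Irf8 and Bcl6 hold the programme back. The fate needs many mitochondria and much iron, and Ppargc1b and the transferrin receptor Tfrc serve that demand.

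The name osteoclast-type macrophage held for a minority of the members. Of the marker genes that the rule did not use, Nfatc1 was detected in 186 of the 237 members (78.5%) and Atp6v0d2 in 89 (37.6%). The comparison cells held Nfatc1 in 60.7% and Atp6v0d2 in 20.9% of cells. With every cell of 5000 or more molecules thinned to 5000, and the others left out, the shares were 43.0% and 27.0% in members. They were 25.2% and 11.9% in the 14567 comparison cells that reached this depth. Lymphoid cells were a set of 292 cells with Cd3 or Cd79a molecules and no C1q, at a median depth of 7175 molecules. The 213 of them that reached 5000 molecules held Nfatc1 in 48.8% and Atp6v0d2 in 1.41% after the same thinning. A molecule of Nfatc1 alone therefore did not set the members apart from lymphocytes. Ctsk, the protease that defines the resorbing osteoclast, was at 0 in 134 members, above 0 and under 100 CPM (molecules per 1000000 molecules of the cell or pool) in 49, from 100 to 500 in 18, from 500 to 1000 in 6, from 1000 to 2000 in 2 and at or above 2000 in 28.

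The members were therefore described in 2 kinds. The 30 members with Ctsk at 0.1% of molecules or more (1000 CPM) are called Ctsk-rich members, and the 207 below it other members. This threshold was chosen after the values had been seen, and few members lay near it: at 0.05% it took 36 members and at 0.2% 28. All that is said of the Ctsk-rich members alone is description, with no test.

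Cells just inside the threshold of the rule did not hold more Ctsk than all cells just outside it. The 105 members with exactly 2 molecules of Ocstamp and Dcstamp, or exactly 2 of Acp5, had pooled levels of 30.1 CPM of Ctsk and 3921 CPM of the MHC class II gene H2-Aa, and none was Ctsk-rich. The 163 cells just outside, with 1 molecule of Ocstamp or Dcstamp and at least 2 of Acp5, had 274 CPM of Ctsk, and 6 were Ctsk-rich. A further 23 Ctsk-rich cells had at least 2 molecules of Acp5 and none of Ocstamp or Dcstamp. The 137 cells with 1 molecule of Acp5 and enough Ocstamp and Dcstamp had 16.8 CPM of Ctsk and 6382 CPM of H2-Aa. The 94 members with at least 4 molecules on each side had 3418 CPM of Ctsk and held all 30 Ctsk-rich members.

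The upstream sequences of 3 genes whose molecules, among members, lay mainly in the Ctsk-rich cells are shown because NFATc1, the central factor of the osteoclast programme, is known to bind elements of the GGAAA type. Each is the 250 bases before the annotated start in RefSeq on GRCm38.p6, written 5′ to 3′ on the strand of the gene, with any match to GGAAAA or its reverse complement TTTTCC in capitals. The Ctsk window is chr3:95498960-95499209 on the plus strand, the Oscar window chr7:3616158-3616407 on the minus strand and the Slc9b2 window chr3:135307450-135307699 on the plus strand.
Ctsk: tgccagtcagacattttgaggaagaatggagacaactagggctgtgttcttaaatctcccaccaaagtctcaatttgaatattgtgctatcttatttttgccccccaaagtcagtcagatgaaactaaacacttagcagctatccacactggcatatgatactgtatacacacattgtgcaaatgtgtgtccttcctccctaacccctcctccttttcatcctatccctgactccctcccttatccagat
Oscar: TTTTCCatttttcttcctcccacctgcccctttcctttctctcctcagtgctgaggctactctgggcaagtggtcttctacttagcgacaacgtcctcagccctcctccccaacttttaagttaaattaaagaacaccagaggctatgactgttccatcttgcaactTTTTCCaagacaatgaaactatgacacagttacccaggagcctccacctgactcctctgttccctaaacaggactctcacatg
Slc9b2: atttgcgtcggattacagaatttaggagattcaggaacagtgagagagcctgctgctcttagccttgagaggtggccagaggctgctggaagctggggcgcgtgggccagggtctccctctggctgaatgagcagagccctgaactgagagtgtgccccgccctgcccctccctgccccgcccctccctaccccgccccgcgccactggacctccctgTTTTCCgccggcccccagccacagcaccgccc
The Ctsk window held 0 matches, the Oscar window 2, starting at positions 1 and 168 from its 5′ end, and the Slc9b2 window 1, at position 219. Of all 32851 upstream windows of that length in the table, 20.4% held at least 1 match. Of 25 windows belonging to 16 of 24 osteoclast genes, 7 (28.0%) did. A match is a run of letters and no evidence of binding. Mmp9, Car2, Atp6v0d2, Itgb3, Siglec15, Ocstamp, Dcstamp and Nfatc1 had no window in the table. In the annotation used here (GENCODE M21, GRCm38), Acp5 lies at chr9:22126727-22135711, Ctsk at chr3:95499256-95509362, Ocstamp at chr2:165393760-165400405, Dcstamp at chr15:39745930-39760938, Atp6v0d2 at chr4:19876841-19922605, Mmp9 at chr2:164940780-164955850, Oscar at chr7:3609813-3616157 and Slc9b2 at chr3:135307700-135345387.

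Members were found in every tag. Library 1 held 158 (1.03% of its cells), library 2 held 37 (0.756%) and library 3 held 42 (0.768%), and the share per tag ran from 0.343% to 1.22% with a median of 0.853%. The number per tag ran from 3 to 28. With cells thinned to 5000 molecules before the rule, and cells under that number left out, 43 members were left among 23259 cells. Some tags then held none, and the median share was 0.113%. With at least 4 molecules of the fusion pair and 4 of Acp5 the median share was 0.350%. Of the Ctsk-rich members 25 lay in library 1, 2 in library 2 and 3 in library 3. They came from 11 of the 18 tags, all 7 tags of library 1 and 4 of the 11 others. Their share of cells was 0.164% in library 1 (exact 95% interval 0.106 to 0.242%) and 0.0482% in libraries 2 and 3 together (0.0157 to 0.113%). Median depth per tag was 16054 to 20282 molecules in library 1 and 11612 to 16727.5 in the others, and the part of depth in this difference was not tested.

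**Figure D1:**
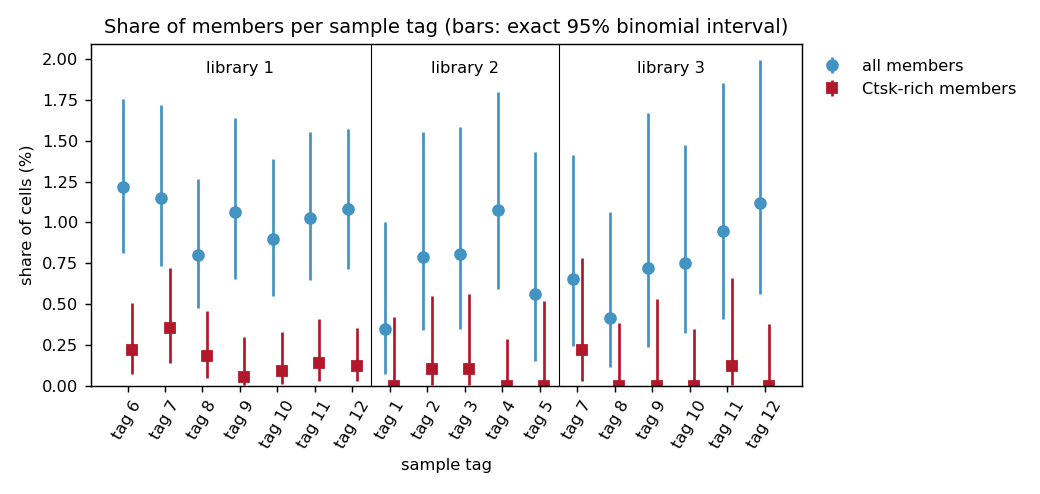
Share of cells in percent (vertical axis) for each of the 18 sample tags (horizontal axis, by library), with all members as blue circles and Ctsk-rich members as red squares; bars are exact 95% binomial intervals and cover counting error only. All members lie between 0.343% and 1.22% of cells, and Ctsk-rich members are at 0 in 7 tags, none of them in library 1.

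The fusion genes that chose the cells differed between the 2 kinds. Among all members, 73 held Ocstamp without Dcstamp, 104 held Dcstamp without Ocstamp and 60 held both. Of the Ctsk-rich members, 26 of 30 held both, with a median of 20 molecules of the pair per cell (4 to 99) and 126 of Acp5 (11 to 492). Of the other members, 34 of 207 held both, with medians of 4 molecules of the pair (2 to 35) and 5 of Acp5 (2 to 160). These values belong to the rule and are given as description.

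The Ctsk-rich members carried the resorption genes together. Ctsk itself, on which they were chosen, ran from 1328 to 28975 CPM per cell with a median of 7884, and its pooled level was 8504 CPM against 76.5 in other members and 25.4 in comparison cells. Atp6v0d2 was detected in 30 of 30 Ctsk-rich members, from 652 to 5421 CPM with a median of 1993. It was detected in 59 of the 207 other members, whose median was 0, and its pooled levels were 2041, 175 and 82.7 CPM in Ctsk-rich members, other members and comparison cells. The lowest Ctsk-rich cell thus held more Atp6v0d2 than most other members. Mmp9, the gelatinase of resorbing osteoclasts, was detected in 27 of 30 Ctsk-rich members and in 32 of 207 other members, with pooled levels of 4007, 53.2 and 41.8 CPM in the same order.

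Further osteoclast genes were found mainly in the Ctsk-rich members. Oscar, an immune receptor that costimulates osteoclast formation through the adaptor Fcer1g, had 227 molecules in all members, of which 226 lay in 22 Ctsk-rich cells and 1 in the other 207. Its pooled level was 138 CPM in Ctsk-rich members and 0.0405 CPM in comparison cells, where 15 molecules were counted. Slc9b2, a sodium and proton exchanger induced in osteoclasts, was detected in 29 Ctsk-rich and 18 other members, at 372 and 14.7 CPM, against 0.859 in comparison cells. Car2 was detected in 22 Ctsk-rich and 13 other members, at 140 and 4.14 CPM, against 1.98. Siglec15, a sialic acid receptor that signals in osteoclasts, had 7 molecules in 6 Ctsk-rich cells and 0 in the other members. Calcr, the calcitonin receptor of mature osteoclasts, was not detected in any member; 3 molecules would have been 1.84 CPM in the Ctsk-rich members, so a low level could not have been seen.

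Tcirg1 and Clcn7, genes of the pump and its counter-ion path that macrophages also use, differed by less than Atp6v0d2. Tcirg1 stood at 653 CPM in Ctsk-rich members, 316 in other members and 262 in comparison cells. Clcn7 stood at 164, 63.9 and 68.3 CPM, Snx10, a sorting nexin needed for resorption, at 1002, 205 and 173, and the bicarbonate exchanger Slc4a2 at 235, 35.9 and 29.3. Itgb3, the beta chain of the vitronectin receptor, was at 36.7, 2.71 and 2.28 CPM, with a median cell at 0 in the Ctsk-rich members. Src, the kinase of the sealing zone, was detected in 30 of 30 Ctsk-rich members and 70 of 207 others, at 247, 35.2 and 6.13 CPM.

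Regulators were divided. Of 29 genes of RANK signalling and its regulators 9 were at least 2-fold higher and 6 lower in Ctsk-rich members than in comparison cells, by the measure given below for whole lists, with a median log2 ratio of 0.23. Nfkb1, an NF-kappaB subunit, was at 160.3, 247 and 156 CPM in Ctsk-rich members, other members and comparison cells, and Id2, an inhibitor of basic helix-loop-helix factors, at 198, 530.1 and 748. Nfatc1 ran from 443 to 2824 CPM in the 30 Ctsk-rich members with a median of 1315, and its pooled levels were 1445, 172 and 60.5 CPM. Jdp2, a basic leucine zipper protein that takes part in RANKL signalling, stood at 953, 193 and 88.7 CPM, Prdm1, which represses Irf8 in osteoclast formation, at 283, 85.6 and 44.1, and Ppargc1b at 117, 14.6 and 5.26. The repressors stood the other way: Irf8 at 12.8, 107 and 134 CPM, and Bcl6 at 9.18, 56.6 and 70.0. Tnfrsf11a (RANK) was at 318, 117 and 98.6 CPM, whereas Csf1r pooled over libraries was nearly level at 714, 553 and 763. Library 1 held 25 of 30 Ctsk-rich members but 8201 of 15280 comparison cells. Within library 1 Csf1r was at 626, 462 and 566 CPM, and within libraries 2 and 3 at 1646, 779 and 1092. No molecule of Tnfsf11 (RANKL) or of its decoy receptor Tnfrsf11b was counted in any member, and their levels in comparison cells were 0.440 and 0.197 CPM.

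**Figure D2:**
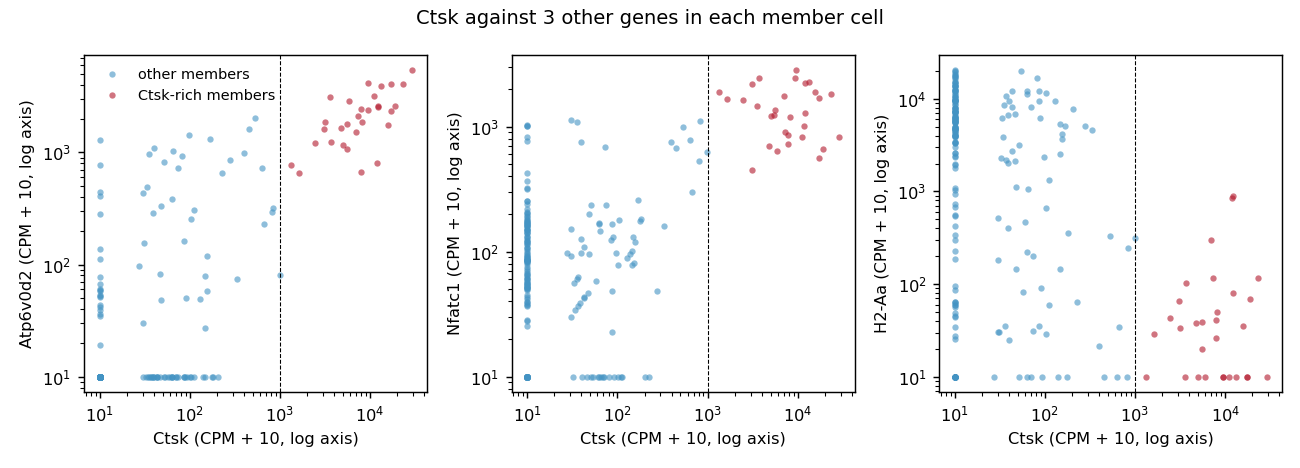
Ctsk (horizontal axis) against Atp6v0d2, Nfatc1 and H2-Aa (vertical axes) in each of the 237 members, in CPM plus 10 on log axes; the dashed line marks 1000 CPM of Ctsk. The 30 Ctsk-rich members (red) all hold at least 443 CPM of Nfatc1 and 652 CPM of Atp6v0d2, and H2-Aa reaches no more than 889 CPM among them.

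Several macrophage genes were low in the Ctsk-rich members and others were not. Cd68 was at 1277 CPM against 1281 in other members and 1660.2 in comparison cells, and Tyrobp, an adaptor of myeloid receptors, at 1305, 1472 and 1599.8 CPM. C1qa was at 13.5 CPM against 555 in other members and 1392 in comparison cells, which had been chosen for C1q. Adgre1, a pan-macrophage adhesion receptor, was at 3.06, 201 and 631 CPM, Lyz2 at 118, 5359 and 10296, Cybb, the NADPH oxidase subunit, at 16.5, 1055 and 1097, and Mertk, the receptor for dying cells, at 3.06, 72.0 and 121. H2-Aa ran from 0 to 889 CPM per Ctsk-rich cell with a pooled level of 73.4, against 3889 in other members. None of the 30 reached 0.1% of C1q or 0.5% of MHC class II, and none held 3 molecules of dendritic cell markers or 10 of monocyte markers. 1 Ctsk-rich cell held 3 molecules of mature dendritic markers.

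**Figure D3:**
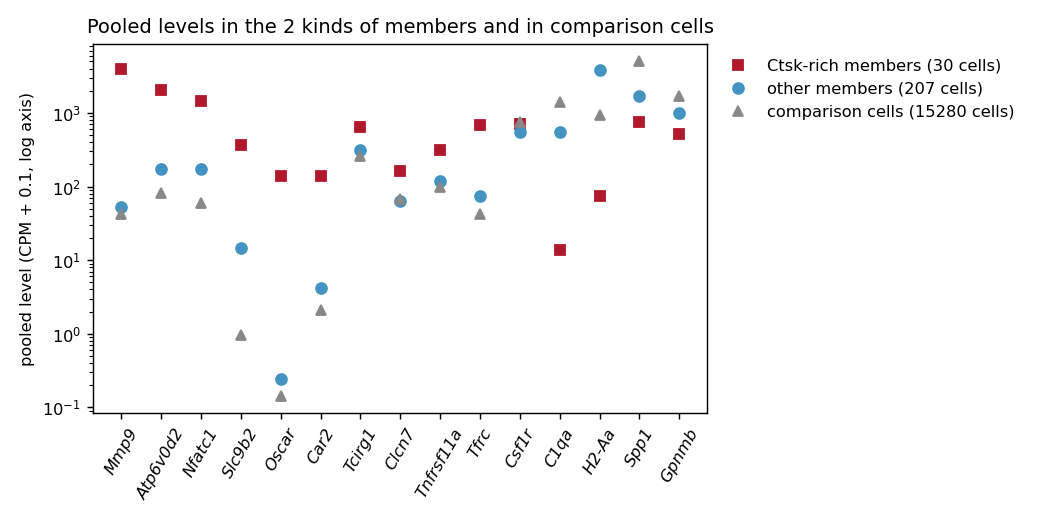
Pooled level of 15 genes (horizontal axis) in CPM plus 0.1 on a log axis, in 30 Ctsk-rich members (red squares), 207 other members (blue circles) and 15280 comparison cells (grey triangles); Ctsk is left out because it chose the cells. From Mmp9 to Car2 the Ctsk-rich members lie apart from both other sets, Csf1r is nearly level, and C1qa and H2-Aa are lowest in the Ctsk-rich members.

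Over whole lists the Ctsk-rich members were set beside comparison cells by pooled level, with 20 CPM added before the log2 ratio and a 2-fold difference counted. Of all 7172 genes at 20 CPM or more in either set, 8.35% were higher and 10.9% lower, with a median log2 ratio of 0.19. In the list of osteoclast resorption and surface genes 12 of 15 were higher and 1 lower, with a median of 2.37. Oscar, Slc9b2, Car2, Itgb3 and Src were under 20 CPM in comparison cells and entered only through the Ctsk-rich members. Genes that entered in this way could not be counted as lower, and Ctsk, also in the list, chose the cells. These counts are therefore description and no support. Of 16 V-ATPase subunits 9 were higher, led by Atp6v1b2 at 1864 against 400 CPM and Atp6v1d at 699 against 186, while Atp6v0a1 was lower at 18.4 against 152. Of 16 oxidative phosphorylation genes 14 were higher, with a median of 1.43, among them Sdha at 407 against 114 CPM and Atp5b at 810 against 223. Tfrc was at 678 against 41.6 CPM.

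In the other direction, 13 of 22 lysosome genes were lower in the Ctsk-rich members, including cathepsins C (92.4 against 1848 CPM) and L (151 against 1561), while Cd63 and Cd68 differed by less than 2-fold. Of 16 inflammatory cytokines and chemokines 15 were lower, with a median of -3.78, the exception being Ccl9 at 1089 against 882 CPM. Ccl6 was at 15.9 against 1814 and Cxcl2 at 83.2 against 3473 CPM. Of 14 lipid-handling genes 12 were lower, with a median of -1.97: Cd36 was at 20.2 against 598 and Apoe at 425 against 7084 CPM. Cycling genes were present as well: 11 of 30 Ctsk-rich members (36.7%) held at least 5 molecules of Mki67 and Top2a, against 31.4% of other members and 14.3% of comparison cells. Deeper cells reach such a count more easily, and the part of depth in these shares was not tested. Pooled Mki67 was at 389, 335 and 156 CPM in the same order. Mki67 was at 426 CPM in the 25 Ctsk-rich cells of library 1 and at 0 in the 5 of libraries 2 and 3.

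The 5 Ctsk-rich cells of libraries 2 and 3 also held the main resorption genes. Their pooled levels were 17105 CPM of Ctsk, 1270 of Nfatc1, 2895 of Atp6v0d2 and 11288 of Mmp9, against 7692, 1462, 1960 and 3320 in the 25 cells of library 1. Oscar was at 135 and 139 CPM. Other genes lay further apart: H2-Aa was at 468 CPM in the 5 cells and 36.2 in the 25, C1qa at 63.9 and 8.70, Itgb3 at 184 and 22.8, and Gpnmb at 206 and 551. With 5 cells from 4 tags, no difference between the libraries was tested.

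Counted per cell on 20 osteoclast genes after thinning to 5000 molecules, the Ctsk-rich members held a median of 10 detected genes and all 30 held at least 5. The other members held a median of 4, and 59 of 207 (28.5%) reached 5. Comparison cells held a median of 3 with 16.8% reaching 5, comparison cells rich in Gpnmb a median of 4 with 25.5%, and lymphoid cells a median of 1 with 1.88%. The list holds Ctsk, on which the Ctsk-rich members were chosen.

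Depth and RNA composition moved with this division. The Ctsk-rich members had a median of 50162 molecules per cell (9033 to 120152) and 6598 genes, the other members 27578 and 4935. Mitochondrial transcripts made up a median of 7.72% of molecules in the Ctsk-rich and 5.01% in the other members. The 2% of cells with the highest doublet scores held 9 members and none of the Ctsk-rich. The part of depth and of mitochondrial transcripts in the division was not tested.

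The other 207 members were a mixture. MHC class II genes made up at least 0.5% of molecules in 129 (62.3%), against 18.9% of comparison cells, and C1q reached 0.1% in 117 (56.5%). Of the 207, 80 had both, 49 had MHC class II without C1q, 37 had C1q without MHC class II, and 41 had neither, of which 25 held at least 10 molecules of monocyte markers. At least 10 molecules of a list of monocyte markers, among them Ly6c2, Ccr2 and Plac8, were found in 144 (69.6%), against 47.6% of comparison cells. At least 3 molecules of dendritic markers were found in 39 (18.8%), and of mature dendritic markers in 31 (15.0%), against 2.28% and 2.50% of comparison cells. Deeper cells reach these counts of molecules more easily. Pooled monocyte markers were at 1117 CPM in other members and 864 in comparison cells. Dendritic markers were at 91.0 and 14.2 CPM, and mature dendritic markers at 184 and 15.3, in the same order.

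Within this mixture, cells with Ocstamp alone and with Dcstamp alone differed in some markers and not in others. The 71 with Ocstamp alone held monocyte markers in 80.3% and MHC class II in 43.7%, with pooled levels of 192 CPM of Ly6c2, 327 of Plac8 and 210 of Chil3. The 102 with Dcstamp alone held MHC class II in 73.5% and mature dendritic markers in 18.6%, with 12.9 CPM of Ly6c2 and 46.9 of Plac8. Mgl2, a lectin of MHC class II macrophages and type 2 dendritic cells, was at 292 CPM with Dcstamp alone and 22.6 with Ocstamp alone. Ccl22 and Ccr7, genes of mature dendritic cells, were at 116 and 96.4 CPM with Dcstamp alone and at 2.35 and 26.4 with Ocstamp alone. Ccr7 was detected in 18.6% and 14.1% of these cells, so a minority carried the pooled levels, and dendritic markers reached 3 molecules in 17.6% and 19.7%. The 34 with both genes had 99.2 CPM of Ly6c2 and 229 of Mgl2, between the other sets. Their Ctsk was at 135 CPM, against 65.0 with Ocstamp alone and 58.3 with Dcstamp alone, and their Src at 72.0 against 27.3 and 24.3. Library 1 held 53 of the 71 cells with Ocstamp alone and 58 of the 102 with Dcstamp alone. Pooled H2-Aa in all other members was 2935 CPM in library 1 and 6283 in libraries 2 and 3. The part of the library in these contrasts was not tested. The split used the genes of the rule and was looked at after the values were known, so it has no test.

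Ctsk-rich cells were not all members. Among all 25640 cells 78 had Ctsk at 0.1% or more. Besides the 30 members, 6 were cells with fibroblast markers at 1% of molecules or more, in which Nfatc1 was at 35.3 CPM and Atp6v0d2 at 0. The other 42 had 3643 CPM of Ctsk, 337 of Nfatc1, 792 of Atp6v0d2 and 1.19 of Oscar, levels of Nfatc1 and Oscar well under those of the members. Of these, 34 held at least 2 molecules of Acp5 and failed the rule on Ocstamp and Dcstamp or on lymphocyte genes.

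Members and comparison cells were then compared within tags. Molecules were summed per tag and cell set in the 9 tags with at least 10 members, 7 from library 1 and 1 each from libraries 2 and 3, and tested with edgeR's quasi-likelihood F test with the tag as a block and Benjamini-Hochberg adjustment over 12854 genes. The members of these tags include the Ctsk-rich cells, from 1 to 7 per tag in library 1 and none in the other 2 tags. At an adjusted p of 0.05, 1488 genes (11.6% of those tested) rose in members and 2072 (16.1%) fell, and the median log2 difference of all genes was -0.05. Of the calls 41.8% were rises; with DESeq2's Wald test the counts were 1993 and 1776, or 52.9% rises. The tags of the sets did not overlap for 1.01% of genes that were higher and 1.45% that were lower in members. Without library 1 the counts were 105 and 101, from 2 tags. Genes of the rule are not in these tests. Comparison cells had to hold C1q and members did not, so a gene that goes with C1q is lower in members in part by the choice of cells.

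Resorption genes rose in the summed members. Ctsk in the members of the 9 tags had a lowest value of 12.2, a median of 1173 and a highest of 4351 CPM, against 21.9, 23.0 and 61.5 in comparison cells. The 7 tags of library 1 lay at 218 CPM or more, library 3 tag 12 at 79.7 against 61.5 in its own comparison cells, and library 2 tag 4 at 12.2 against 22.1, so the groups overlap. The log2 difference was 4.84 ± 0.72 (SE, adjusted p = 0.000145 by edgeR, higher in 8 of 9 tags). Without library 1 it was -0.02, in tags that hold no Ctsk-rich member.

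Atp6v0d2 had 0, 361 and 1068 CPM in members (lowest, median, highest tag) against 45.8, 72.2 and 112. Its log2 difference was 2.16 ± 0.41 (adjusted p = 0.000961, edgeR, higher in 7 of 9 tags), and -0.96 without library 1. Mmp9 had 21.3, 443 and 1929.9 CPM against 12.9, 31.9 and 225, and was higher in each of the 9 tags (3.18 ± 0.58, adjusted p = 0.000779). Src was among the genes whose tags did not overlap, 18.3, 71.1 and 146 CPM in members against 3.66, 6.81 and 9.14, with a difference of 3.55 ± 0.25 (adjusted p = 1.97e-07). Its lowest members were those of the 2 tags without a Ctsk-rich cell, which still lay above their comparison cells.

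Slc9b2 had 0, 63.3 and 140 CPM in members against 0.237, 0.704 and 1.54 in comparison cells, with 0 in the 2 tags outside library 1 (6.30 ± 0.49, adjusted p = 4.55e-07, edgeR). Oscar was likewise at 0 in those 2 tags and at 1.13 to 101 CPM in the 7 of library 1 (8.19 ± 0.81, adjusted p = 5.95e-06). Car2 was at 0, 15.7 and 106 CPM against 0.282, 0.879 and 3.98 (4.18 ± 0.67, adjusted p = 0.000275). Tcirg1 differed by little but did not overlap, 303, 394 and 468 CPM against 236, 253 and 294 (0.40 ± 0.09, adjusted p = 0.0035). Without the cells that held markers of other types its adjusted p was 0.0689. Clcn7 (0.02 ± 0.11, adjusted p = 0.924) and Itgb3 (1.12 ± 0.59, adjusted p = 0.179) did not pass the test.

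**Figure D4:**
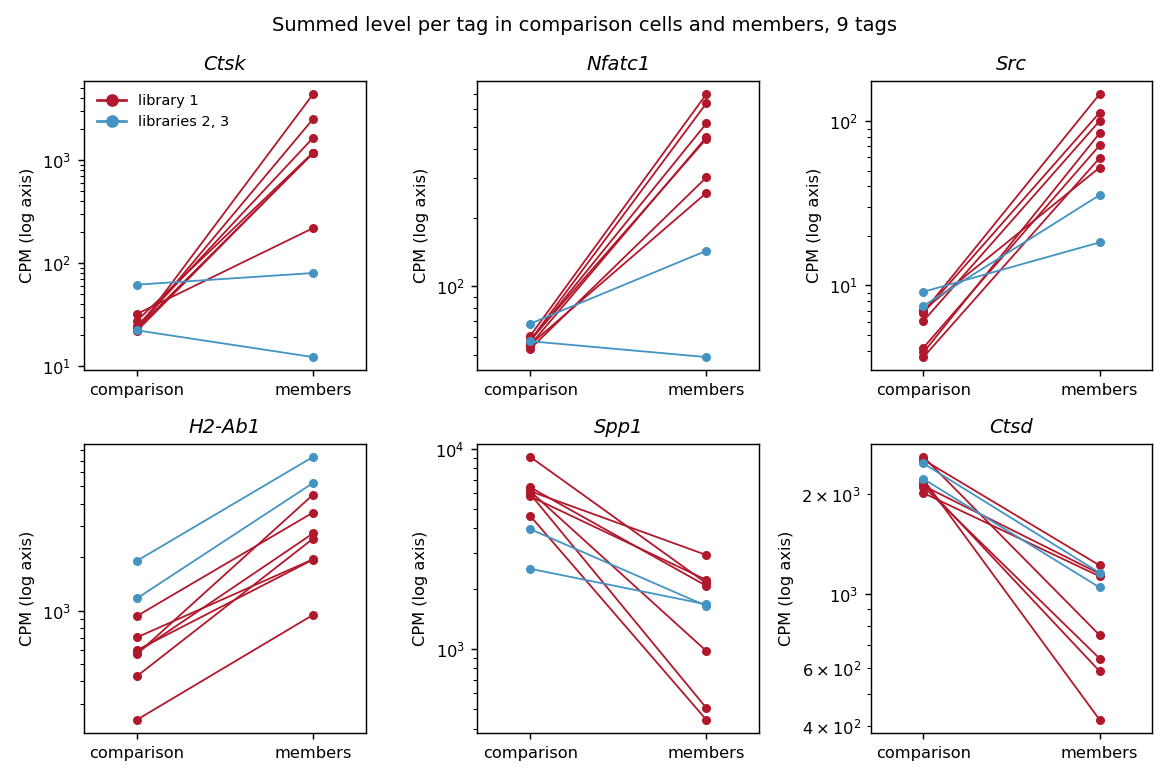
Level of 6 genes in comparison cells and members summed per tag, in CPM on log axes, with a line for each of the 9 tags (red for library 1, blue for libraries 2 and 3). Ctsk and Nfatc1 rise steeply in library 1 and less or not at all in the other 2 tags, Src and H2-Ab1 rise in every tag, and Spp1 and Ctsd fall in every tag.

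In the whole list of 18 tested resorption and surface genes 11 rose and 2 fell (Ostm1 and the lysosome trafficking gene Plekhm1), with a median log2 difference of 1.11 against -0.05 over all genes. The list was chosen with earlier results of these data known and is no independent evidence of its direction. Among 31 tested genes of RANK signalling and its regulators 9 rose and 12 fell, with a median of 0.04. Nfatc1 had 48.7, 445 and 700 CPM in members against 52.9, 57.4 and 68.4 (2.46 ± 0.27, adjusted p = 9.19e-06, edgeR, higher in 8 of 9 tags), and library 3 tag 12 at 48.7 was the tag where it was not higher. Jdp2 (1.61), Prdm1 (1.20) and Ppargc1b (2.43) also rose. Irf8 had 43.2, 71.8 and 164 CPM in members against 100.4, 119 and 162 in comparison cells, and fell by 0.81 (SE 0.16, adjusted p = 0.0015, lower in 7 of 9 tags).

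The receptors moved less. Tnfrsf11a was at 53.2, 167 and 230 CPM in members against 70.3, 111 and 135, a difference of 0.36 ± 0.12 (adjusted p = 0.0326, edgeR). That call was lost when any of 6 tags of library 1 was left out, with adjusted p of 0.063 to 0.107, and the value was -0.23 without library 1. Csf1r was at 337, 551 and 1236 CPM against 470, 617 and 1162 (-0.28 ± 0.10, adjusted p = 0.0489). With comparison cells matched on molecules the Csf1r difference was -0.09 with an adjusted p of 0.563. Mitf, a partner of Nfatc1 at osteoclast promoters, did not pass (0.04 ± 0.15, adjusted p = 0.885).

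Fusion, adhesion and energy genes were mixed. Of 15 tested fusion genes 4 rose and 8 fell: Myo10, a motor of filopodia, rose by 2.95 ± 0.24 (adjusted p = 7.56e-07, edgeR), and Cd81, a tetraspanin, fell by 0.72 (adjusted p = 0.000715). Of 20 podosome and sealing zone genes 3 rose and 7 fell, with Cttn at 2.91 and Actn1 at 1.39 among the rises and Itgb1 at -0.52 among the falls. Of 16 V-ATPase subunits 6 rose and 2 fell, all but Atp6v0a1 (-1.02) by less than 0.5. Of 16 oxidative phosphorylation genes 11 rose and none fell, with a median of 0.44, for example Cycs at 0.75 ± 0.11 (adjusted p = 9.53e-05). Of 14 cell cycle genes 7 rose and none fell, with a median of 0.66. Ccnb1, Cenpe and Ccnb2 rose in the full set, and without library 1 their differences were -0.83, -0.98 and -1.85.

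MHC class II genes rose as a whole, which is a mark of the other members and not of the Ctsk-rich ones. All 9 genes rose, with a median of 1.90. H2-Ab1 had 947, 2722 and 7339 CPM in members against 243, 599.7 and 1907 in comparison cells, higher in each of the 9 tags (1.97 ± 0.13, adjusted p = 1.51e-07, edgeR), and 2.07 without library 1. The rise was thus as large in the 2 tags that held no Ctsk-rich cell. Among other genes with the largest rises, Cyp2s1, a cytochrome P450, had 3.04, 38.0 and 276 CPM against 0.126, 0.277 and 0.634 (7.22 ± 0.47, adjusted p = 1.51e-07). It was detected in 28 of 30 Ctsk-rich and 28 of 207 other members. Klrb1b, a lectin-like receptor, was at 0.612 CPM in Ctsk-rich and 45.8 in other members, so that its rise of 3.44 ± 0.33 (adjusted p = 3.41e-06) came with the other members. Pgf, Coq8a, Pcdh7, Srgap3, Sbsn, Wnt11 and Ramp3 rose by 2.75 to 3.71. They were also among the 12 largest rises of genes higher in all 9 tags, a condition of that ranking. Oscar and Slc9b2, at 0 in 2 tags, could not enter it.

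Lysosomal and lipid-handling genes fell. Of 22 lysosome genes 21 fell and none rose, with a median of -0.63: Ctsd had 419, 1045 and 1217 CPM in members against 2008, 2204 and 2578 (-1.54 ± 0.16, adjusted p = 5.78e-06, edgeR), with no overlap between tags. Ctsb and Ctsl fell as well (-1.37 and -1.92). Of 15 lipid-handling genes 11 fell and none rose, with a median of -1.27. Spp1, osteopontin, had 442, 1669.9 and 2947 CPM against 2515, 5944 and 9117 (-2.07 ± 0.28, adjusted p = 6.29e-05, lower in 9 of 9 tags), Apoe fell by 2.19, and Gpnmb fell by 1.35. In other members with C1q at 0.1% or more, which share the C1q requirement with comparison cells, pooled Spp1 was 2296 CPM, Apoe 2468 and Ctsd 1378, against 5113, 7084 and 2279 in comparison cells.

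Inflammatory and interferon genes were lower too. Of 16 cytokines and chemokines 12 fell and 1 rose. Il6 fell by 4.74 (SE 0.30, adjusted p = 1.41e-07, edgeR), from 14.3, 57.7 and 396 CPM in comparison cells to 0, 2.53 and 12.6 in members, and Ccl2, Ccl7 and Ccl3 fell too (-2.17, -2.54 and -1.60). Il1b was the gene that rose (0.94, adjusted p = 0.00275). Its pooled level was 1541 CPM in other members and 12.8 in Ctsk-rich members. Of 12 interferon response genes 8 fell and none rose, for example Usp18 (-1.49). The 10 largest fitted falls among genes lower in every tag were of genes without a molecule in the members of the 9 tags. These were Wwtr1, Bmx, Mxra8, Dnajb13, Ltbp2, Lamb1, Ly6d, Cilp, Lhfp and Tgfb1i1. At the limit that 3 molecules over the group allow, 0.425 CPM, they were at least 3.25-fold to at least 5.12-fold lower than in comparison cells, which also held more fibroblast marker molecules (a median of 149 CPM per tag over 7 genes, against 27.1 in members). The part of fibroblast RNA in these differences was not tested.

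**Figure D5:**
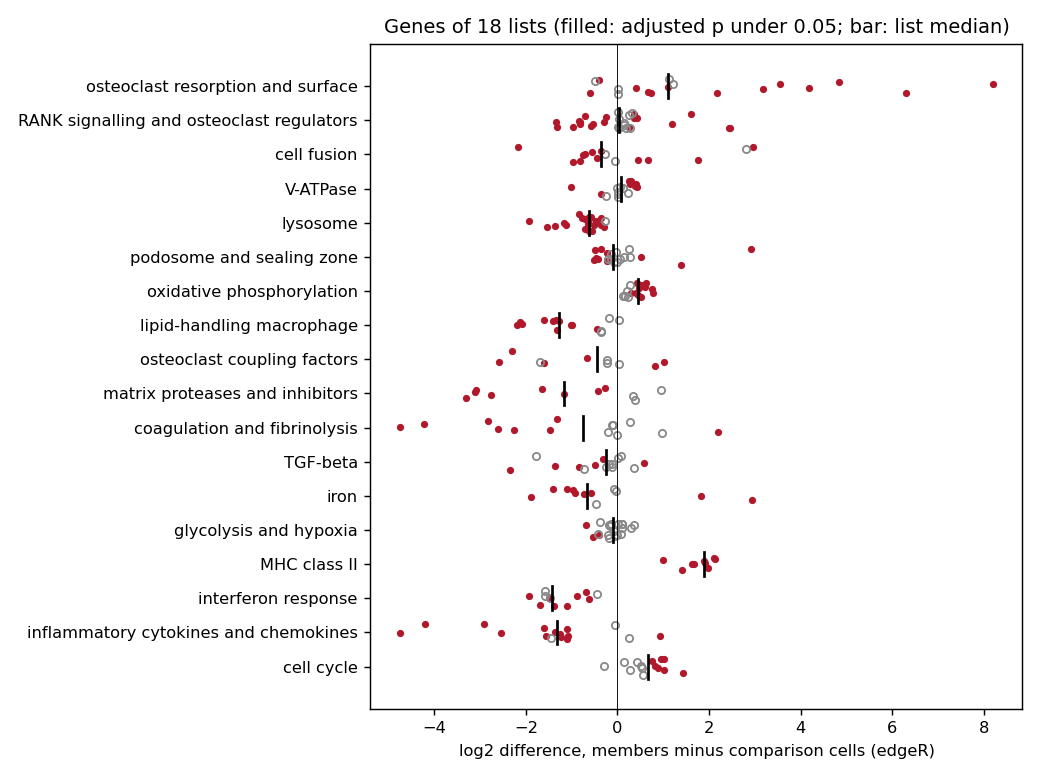
Log2 difference between members and comparison cells (horizontal axis) for each tested gene of 18 lists (vertical axis); filled points passed an adjusted p of 0.05, open points did not, and black bars mark list medians. The 9 MHC class II genes all lie to the right of 0, 21 of 22 lysosome genes passed the test to the left of it, and the osteoclast list reaches 8.19 at Oscar.

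Factors that link osteoclasts to matrix-forming cells, and iron genes, went in both directions. None of the listed matrix proteases and inhibitors rose, in a list that leaves out Mmp9 and Mmp14. Sema4d, a semaphorin that osteoclasts use to restrain osteoblasts, had 354, 433 and 624 CPM in members against 155, 210 and 273 (1.02 ± 0.08, adjusted p = 5.79e-07, edgeR), with no overlap. It stood at 625.3 CPM in Ctsk-rich and 418 in other members. Gas6, a ligand of Mertk and its kin, fell by 2.31, and of 10 tested coupling factors 2 rose and 4 fell. Of 11 matrix proteases and inhibitors none rose and 8 fell, such as Timp2 (-1.16). Mmp9, which rose, and Mmp14 were counted with the resorption genes. Tfrc rose by 1.83 ± 0.28 (adjusted p = 0.000202) and was -0.48 without library 1, while Hmox1, the haem-degrading enzyme, fell by 1.89. Of 12 iron genes 2 rose and 7 fell. Of 15 TGF-beta genes 1 rose and 5 fell, with Tgfbi at 0.59 and Thbs1 at -1.35. Tgfbi was at -0.29 when members needed 4 molecules of the fusion pair and 4 of Acp5. Of 20 glycolysis genes none rose and 3 fell.

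Of the coagulation genes, the subject of the study, more fell than rose. F7 in members had 0, 2.70 and 73.6 CPM over tags against 5.30, 12.9 and 50.3 in comparison cells, higher in 2 of 9 tags (-1.46 ± 0.45, adjusted p = 0.0237, edgeR). The F7 call was lost when any of 5 tags of library 1 was left out, with adjusted p of 0.0527 to 0.0827, and without the cells that held markers of other types (adjusted p = 0.468). The value was 0.46 without library 1. Ctsk-rich members held 1 molecule of F7 in 1 of 30 cells, a ratio to comparison cells of 0.028 (counting interval 0.00071 to 0.156). That interval covers counting error only and not the spread between tags. The pools mix tags with genotype and time not used. Library 1 held 25 of the 30 Ctsk-rich members but 8201 of the 15280 comparison cells. Other members held 14.7 CPM in 29 of 207 cells, and comparison cells 21.8. F10 was not detected in the Ctsk-rich members, at least 30.7-fold lower than the 56.4 CPM of comparison cells, and was at 68.9 CPM in other members. The same limits of the pools hold for this value. F10 did not pass the test over all members (-0.11 ± 0.20, adjusted p = 0.733). F3, tissue factor, the partner of factor 7, fell by 4.22 (SE 0.53, adjusted p = 3.32e-05), with 0, 0.827 and 4.43 CPM against 3.29, 9.57 and 67.4. Of 14 tested coagulation and fibrinolysis genes 1 rose, the thrombin receptor F2r, and 7 fell, among them Serpinb2 (-4.74) and F13a1 (-2.60). Over all genes tested 11.6% rose and 16.1% fell.

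Against comparison cells rich in Gpnmb, lipid-handling macrophages that also use lysosomal and pump genes, the members were compared in the same way. These 5919 cells had Gpnmb at 0.05% of molecules or more and a median of 25792 molecules. They are a subset of the comparison cells and are set against the same members, so the values stand side by side and do not add support. Of 11246 genes 1865 (16.6%) rose and 1968 (17.5%) fell. The tags did not overlap for 2.15% of genes in the upward and 2.02% in the downward direction. Without library 1 the counts were 100 and 21. Nfatc1 differed by 2.61 (2.46 against all comparison cells), Ctsk by 4.13 (4.84), Mmp9 by 3.93 (3.18) and Slc9b2 by 5.92 (6.30), and all 4 passed the test. Without library 1 the Ctsk difference was -0.97.

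Few pump genes passed the test against these cells. Tcirg1 rose by 0.23 (adjusted p = 0.0473, edgeR), where the difference from all comparison cells was 0.40. Atp6v0d2 was at 95.3, 155 and 249 CPM in Gpnmb-rich cells and at 0, 361 and 1068 in members, a difference of 1.20 ± 0.46 that did not pass (adjusted p = 0.0547, edgeR). It passed in several alternatives, for example without library 3 (1.49, adjusted p = 0.0106), and was -2.36 without library 1. Of 16 V-ATPase subunits none rose and 4 fell, among them Atp6v0a1 (-1.29). All 22 lysosome genes fell, with Ctsd at -2.08 and Cd68 at -1.03. All 9 MHC class II genes rose, with a median of 2.71, and Il1b rose by 2.32 (adjusted p = 2.1e-06). Mgl2 rose by 4.43, whereas Cd163 and Ccl8, genes of resident macrophages, fell (-3.41 and -4.78). Spp1 fell by 2.73 without overlap, and F7 fell by 1.97 (adjusted p = 0.00467).

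Molecules per cell are given last, since the rule itself favours deep cells. The median per tag in members was 19007 to 41130.5 with a median of 35441.5, against 16608 to 26889 with a median of 23430.5 in comparison cells. Members were higher in 8 of 9 tags by a mean of 8427 (SD 6929), with a two-sided exact permutation p of 0.0117, where 0.0039 is the smallest possible. Without library 1 the mean difference was 1555 in 2 tags. Against Gpnmb-rich cells the mean difference was 2954 (SD 6395, exact permutation p = 0.207).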

How the data were processed

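Single-cell RNA counts of CD45+ cells from the infarcted hearts of mice were deposited for 3 libraries as 18 tables, 1 per sample tag. Per the file headers, the authors' tables hold deduplicated molecule counts (RSEC-corrected) from the BD Rhapsody pipeline, version 2.0b1 for library 1 and 1.10 for libraries 2 and 3, with the GENCODE M19 annotation; the build is GRCm38, per the submitters' processing notes. Counting of intronic reads in library 1 can raise its molecules per cell. The 122 cells under 200 genes were left out, and 0 columns of other samples were present. A gene missing from a table was taken as 0.

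The sample tag was the replicate. The labels say that tagging identified biological replicates, but not which tag is which animal, so p-values measure the spread between tags. Molecules were summed per tag and cell set and tested with edgeR 4.0.16 (R 4.3.3; quasi-likelihood F test, TMM factors, filterByExpr, tag as block, Benjamini-Hochberg over all genes tested, threshold 0.05). Members and comparison cells of a tag share the animals and the library, and on that ground the tag was blocked. Levels are molecules per 1000000 molecules (CPM), pooled over cells unless given per cell. Pools of different cell sets mix the libraries in unequal parts. Cells were thinned to 5000 molecules to compare shares, and cells under that number were left out of all thinned values. On simulated counts over 12757 genes for members against comparison cells, 60% of 2-fold and 100% of 4-fold changes were recovered, and 4.76% of calls were false. The simulation set the same dispersion for every gene and changed only genes above a minimum level. These rates are therefore no measure of missed or false calls in the data. Doublets were scored with Scrublet in scanpy 1.11.5; its automatic calls numbered 2, 3 and 1 per library and were not used, and the top 2% of scores served as an alternative.

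The genes named were 21 always reported, the 12 largest rises and 10 largest falls with the same sign in every tag, and the 3 smallest adjusted p of each list; levels of other genes describe the Ctsk-rich members and were chosen after their values were seen. A few genes that this rule names are not reported here; they stay in the fits and counts. The members and all lists were chosen with earlier results of these data known. Alternatives were DESeq2 1.42.0, its size factors, no filter on low counts, other minimum cell numbers, cells matched on molecules, stricter membership, doublets or cells with other types' markers left out, no block, and each tag or library left out. Genotype and time after infarction of the tags were not analysed here.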

Additional observations from a re-analysis of the deposited data

Results flagged for a closer look

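Among 29 groups of tags checked for a tag that stands apart from the others of its library, 4 had one, and chance alone gives about 1 in 20. That rate is nominal and the groups share tags and cells, so it is no test of the number flagged. All 4 were gene levels in members, which were checked in library 1 only because the other libraries held too few tested tags. F7 stood at 73.6 CPM in tag 10, where the other 6 tags ran from 1.03 to 7.90; the tag held 55 molecules of F7 in 8 of 20 members, 58.2% of them in 1 cell, and without that cell it stood at 35.8 CPM. F10, which factor 7 activates, stood at 133.8 CPM in the same tag against 27.1 to 53.1, and at 98.1 CPM without its highest cell. Irf8 stood at 128.4 CPM in tag 10 against 43.2 to 78.5, and at 113.6 CPM without its highest cell. Gpnmb stood at 1543 CPM in tag 9 against 436 to 844, with 36.7% of its molecules in 1 cell, and at 1071 CPM without that cell.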

How the results depend on the processing

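Without library 1, 2 tags remained, neither with a Ctsk-rich member, and the counts of genes that rose and fell were 105 and 101 against comparison cells and 100 and 21 against Gpnmb-rich cells. The reported genes that turned sign in that setting are given with their lowest and highest log2 difference over all tags and libraries left out, the value without library 1 being the low end for rises and the high end for falls. Against comparison cells these were Atp6v0d2 (-0.96 to 2.43), Ctsk (-0.021 to 5.23), Tnfrsf11a (-0.23 to 0.43), Car2 (-7.57 to 4.49), Csf1r (-0.35 to 0.035), F7 (-2.18 to 0.46), Atp6ap1 (-0.45 to 0.036), Tfrc (-0.48 to 2.00), Bnip3 (-0.98 to 0.49), Hif1a (-0.56 to 0.20), Oasl2 (-1.29 to 0.33), Ccnb1 (-0.83 to 1.68), Cenpe (-0.98 to 0.91) and Ccnb2 (-1.85 to 1.22). Against Gpnmb-rich cells they were Ctsk (-0.97 to 4.58), Tnfrsf11a (-0.20 to 0.51), F7 (-2.70 to 0.82), Thbs1 (-1.01 to 0.43), Bnip3 (-0.88 to 0.33), Cenpe (-0.16 to 1.17), Ccnb1 (-0.088 to 1.77) and Top2a (-0.61 to 1.46). Leaving out each library gave 105 to 1763 rises and 101 to 2428 falls, and against Gpnmb-rich cells 100 to 2276 and 21 to 2050; leaving out each tag gave 1014 to 1763 and 1622 to 2428, and 1472 to 2276 and 1606 to 2050. With at least 4 molecules of Ocstamp and Dcstamp together and 4 of Acp5 the counts were 762 and 1210, and 771 and 1266, and Tgfbi (-0.29) turned against comparison cells and Clcn7 (0.31), Atp6v1a (0.26) and Plaur (-0.020) against Gpnmb-rich cells. Without cells that held markers of other types the counts were 503 and 763, and 479 and 597; fewer cells and tags entered these fits, and the cause was not otherwise tested. Without the tag as a replicate block the counts were 1709 and 1614, and 1876 and 1643. Of the named calls that could be refitted, those that held against comparison cells and against Gpnmb-rich cells were 78 of 84 and 79 of 82 with DESeq2, 64 of 83 and 64 of 80 under the stricter rule, 60 of 73 and 56 of 74 without cells of other types' markers, and 16 of 76 and 14 of 72 without library 1. The median share of members per tag was 0.113% when cells were thinned before the rule (43 members, 19 of them Ctsk-rich), 0.350% with 4 molecules of the fusion pair and 4 of Acp5, and 0.592% without cells of other types' markers. The mean difference in molecules per cell ran from 1555 to 9392 over the libraries left out. A test on members chosen after thinning was not run because too few remained per tag. Depth limits genes of a few CPM in the 30 Ctsk-rich members, where 3 molecules are 1.84 CPM.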
